A study of Mus musculus with 4 samples.

Results

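The cells described here are blood endothelial cells of the neonatal mouse ear that carried Sele transcripts but few transcripts of the venous genes Ackr1 and Selp. They were chosen by transcript counts, in unique molecular identifiers (UMIs), each of which stands for 1 captured mRNA molecule. A cell was a member if it had at least 2 UMIs of Sele, fewer than 3 of Ackr1 and Selp together, at least 1 of the endothelial cadherin Cdh5, fewer than 3 of the lymphatic genes Prox1, Mmrn1 and Reln together, and fewer than 3 of the division genes Mki67 and Top2a together. The rule found 226 cells among the 3750 that passed the filter on cell quality (at least 500 genes and at most 10% mitochondrial UMIs), out of 4622 barcodes in all. They are called Sele-positive cells below. Under the same endothelial, lymphatic and division gates, 1707 cells with few Ackr1 and Selp UMIs had no Sele UMI (Sele-zero cells), 96 had exactly 1, and 316 had 3 or more UMIs of Ackr1 and Selp and are called venous cells, whatever their Sele.

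Sele encodes E-selectin, an adhesion receptor that endothelial cells place on their surface when inflammatory signals such as TNF or interleukin 1 reach them, and that slows passing leukocytes so that they roll along the vessel wall. Its gene is a classical target of NF-kB, a transcription factor that waits in the cytoplasm bound to its inhibitor IkB alpha (Nfkbia) and enters the nucleus once that inhibitor is destroyed. Nuclear NF-kB also switches on Nfkbia and Tnfaip3, whose products then shut the signal down, and Icam1, the receptor on which slowed leukocytes arrest. In skin, E-selectin and P-selectin (Selp) are known mainly from postcapillary venules, where leukocytes leave the blood, and Ackr1, a chemokine-binding receptor, marks the same venules.

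The series holds 1 group, ear endothelium of C57BL/6 pups at postnatal day 8, with 2 biological replicates (libraries 1 and 2) and no treatment. CD31-enriched cells were sorted as live cells positive for CD31 and for a red reporter (Rtom) recombined by Cdh5CreERT2, so cells in which the inducible Cre did not act were not collected. Each library was sequenced on the 10x Chromium platform for mRNA and, separately, for oligonucleotide tags on antibodies against ICAM1, VCAM1, CXCR4, VEGFR2 and CD45. Library 1 held 15989249 mRNA UMIs and 1500 cells that passed the filter, and library 2 held 26675353 UMIs and 2250 such cells. Adult and wounded ears, which the protocol also mentions, were not analysed here. All comparisons are therefore between kinds of cells taken from the same 2 libraries, tested on UMIs summed by kind of cell and library. The number of animals behind a library was not stated. Each library's own level was fitted as a block, so p-values measure only how far differences between kinds of cells vary between the 2 libraries.

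Library 1 held 66 Sele-positive cells and library 2 held 160. They made up 7.64% of non-venous, non-dividing cells in library 1 (exact 95% interval 5.96 to 9.62, counting error only) and 13.7% in library 2 (11.8 to 15.8). The bar of 2 UMIs was rarely reached in the lymphatic gate, where 0.687% of cells in library 1 and 1.70% in library 2 had 2 or more Sele UMIs. Median depths were 7522 and 7816 UMIs per cell in non-venous cells and 9035 and 10656 in the lymphatic gate. Among venous cells 67.8% in library 1 and 85.3% in library 2 reached it. Once every cell was thinned to 5000 UMIs the shares were 5.83% and 9.69% in non-venous cells, 0.353% and 1.41% in the lymphatic gate, and 53.9% and 78.0% in venous cells. Sele-positive cells were somewhat deeper than Sele-zero cells, with medians of 8940 and 10091 UMIs in libraries 1 and 2 against 7382 and 7424. No member's barcode occurred in both libraries, although 3 barcodes of the whole series did.

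The name non-venous describes the gate better than the cells. Endothelial identity was plain, with all 8 pan-endothelial markers detected and a summed level of 5595 and 5668 counts per 1000000 UMIs (CPM) in Sele-positive cells of libraries 1 and 2, against 6053 and 6109 CPM in Sele-zero cells. Leaving out Ackr1 and Selp, at least 3 vein-marker UMIs were present in 83.3% and 80.6% of Sele-positive cells at 5000 UMIs, against 62.0% in Sele-zero cells of either library and 100% and 98.2% in venous cells. Most of the vein-marker sum was Aqp1, with 1028 of 1845 and 980 of 1441 plain CPM in Sele-positive cells. Nr2f2, Vcam1, Lrg1 and Nrp2 were also above Sele-zero cells in either library. Ephb4 was below them in either library, and Vwf and Vcan (0.526 against 7.74 CPM) were below them in library 2. The share of Sele-positive cells with 3 or more arterial-marker UMIs was 25% and 15.3%, against 52.4% and 50.5% of Sele-zero cells. Tip-cell markers, known from the growing front of new vessels, reached 3 UMIs in 33.3% and 54.9% of Sele-positive cells, against 55.4% and 63.9% of Sele-zero cells and 12.8% and 20.7% of venous cells. On these 3 marker lists the share in Sele-positive cells lay between the other kinds or, for arterial markers, below both, with 39.7% and 22.0% of venous cells. Single arterial genes differed. Fbln5 had 114 and 49.5 plain CPM in Sele-positive cells against 357 and 175 CPM in venous cells. Cxcl12 had 87.0 and 65.2 against 38.2 and 37.9 CPM. Gja4, Unc5b, Hey1, Efnb2 and Sema3g were also above venous cells in either library, Bmx and Jag1 below, and Gja5 differed by library. Capillary markers did not part the kinds of cells by share, since 100% and 98.6% of Sele-positive cells had 3 or more of their UMIs, against 95.6% of Sele-zero cells in either library and 100% of venous cells. Their summed level was 10899 and 8230 CPM in Sele-positive cells, against 12414 and 9463 CPM in Sele-zero cells and 18404 and 16975 CPM in venous cells. Most of that sum was the fatty acid carrier gene Fabp4, with 8159 and 4627 plain CPM in Sele-positive and 16638 and 14660 CPM in venous cells, whereas Gpihbp1, which anchors lipoprotein lipase in capillaries, had 1235 and 1580 CPM in Sele-positive and 660 and 905 CPM in venous cells. They are therefore called by their rule and not as capillary or arterial cells.

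**Figure D1:**
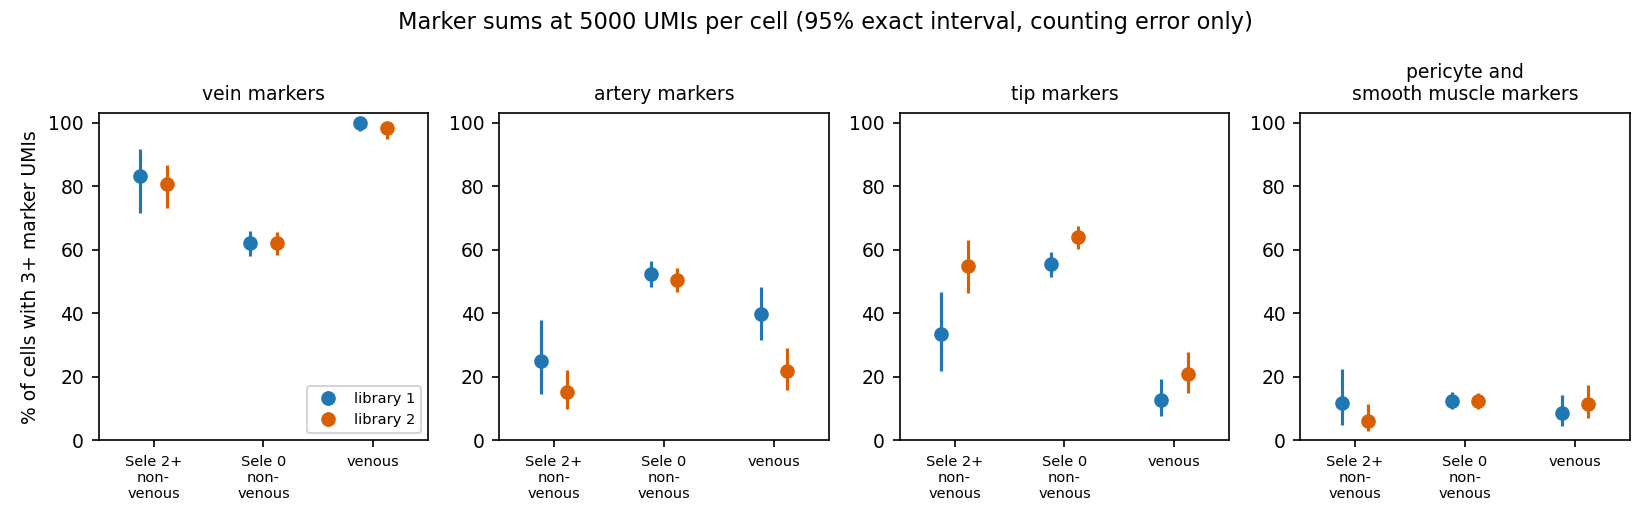
Share of cells, in percent on the vertical axis, with at least 3 UMIs of each marker list after thinning to 5000 UMIs, in Sele-positive, Sele-zero and venous cells of each library, with exact 95% intervals. Vein markers (without Ackr1 and Selp) reach 83.3% and 80.6% of Sele-positive cells, above the 62.0% of Sele-zero cells, while arterial markers reach 25% and 15.3%, below 52.4% and 50.5%.

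Markers of cells outside the vessel lining were low in most cells. Immune markers summed to 12.6 and 90.0 CPM in Sele-positive cells of libraries 1 and 2, against 48.1 and 16.0 CPM in Sele-zero cells, and 8 and 4 of the 10 immune markers had no UMI, including C1qa and Cd3e in either library. In library 2, 1 Sele-positive cell held 89 of the 171 immune UMIs. Pericyte and smooth muscle markers summed to 469 and 313 CPM against 718 and 610 CPM, and fibroblast markers to 327 and 111 CPM against 158 and 173 CPM. Of the fibroblast markers, Col3a1 had 262 and 68.9 plain CPM in Sele-positive cells against 102 and 116 CPM in Sele-zero cells. Pdgfra and Lum were at or near 0 in every kind of cell. At least 3 fibroblast-marker UMIs were present in 12.1% and 4.38% of Sele-positive cells, against 8.19% and 6.61% of Sele-zero cells. Haemoglobin and Alas2 UMIs numbered 5740 in Sele-positive cells of library 2, of which 5618 came from 1 cell. Leaving out cells rich in haemoglobin, or cells with 3 or more UMIs of pericyte, fibroblast, keratinocyte or immune markers, kept the counts of called genes given below within 1.5 times.

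Promoter windows were searched for motifs of NF-kB and of AP-1, the factor built from Jun and Fos proteins. Those printed are that of Sele and, as examples of windows with matches, those of Nfkbia, Tnfaip3 and Cxcl10. Each is the RefSeq window of 250 bases before and 50 bases after a gene start on GRCm38.p6, 5′ to 3′ on the gene's own strand, with matches to the NF-kB consensus or to the AP-1 motif TGANTCA, on either strand, in capitals. The Sele window lies at chr1:164047984-164048283 on the plus strand, those of the NF-kB inhibitor genes Nfkbia and Tnfaip3 (the first of its 2 windows) at chr12:55492598-55492897 and chr10:19015361-19015660 on the minus strand, and that of the chemokine gene Cxcl10 at chr5:92348840-92349139 on the minus strand.
Sele: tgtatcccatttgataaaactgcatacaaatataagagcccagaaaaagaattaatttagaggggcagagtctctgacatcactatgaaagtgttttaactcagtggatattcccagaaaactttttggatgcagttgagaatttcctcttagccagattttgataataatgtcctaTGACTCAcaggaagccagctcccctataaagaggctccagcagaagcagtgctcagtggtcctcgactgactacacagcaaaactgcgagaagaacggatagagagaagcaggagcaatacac
Nfkbia: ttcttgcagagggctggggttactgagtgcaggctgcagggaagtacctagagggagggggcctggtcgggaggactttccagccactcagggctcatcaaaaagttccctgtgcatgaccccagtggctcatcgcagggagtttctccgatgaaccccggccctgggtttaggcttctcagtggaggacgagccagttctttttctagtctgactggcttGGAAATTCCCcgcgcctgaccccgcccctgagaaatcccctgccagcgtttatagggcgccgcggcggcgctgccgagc
Tnfaip3: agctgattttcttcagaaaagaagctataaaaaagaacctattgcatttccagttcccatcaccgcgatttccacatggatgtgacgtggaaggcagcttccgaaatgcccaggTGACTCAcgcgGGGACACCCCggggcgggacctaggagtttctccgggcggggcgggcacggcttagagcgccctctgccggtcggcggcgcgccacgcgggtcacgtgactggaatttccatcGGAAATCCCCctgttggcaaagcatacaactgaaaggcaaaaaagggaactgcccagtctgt
Cxcl10: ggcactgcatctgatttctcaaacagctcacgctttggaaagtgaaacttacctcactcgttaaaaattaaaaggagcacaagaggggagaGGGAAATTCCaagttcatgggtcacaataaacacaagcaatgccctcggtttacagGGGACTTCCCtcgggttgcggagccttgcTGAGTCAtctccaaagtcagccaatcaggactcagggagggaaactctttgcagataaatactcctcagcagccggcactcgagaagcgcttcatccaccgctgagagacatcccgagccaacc
The Sele window holds 1 AP-1 match and no NF-kB consensus match. The Nfkbia window holds 1 NF-kB match, and those of Tnfaip3 and Cxcl10 hold 2 NF-kB matches and 1 AP-1 match each. The Icam1 and Atf3 windows and the second Tnfaip3 window, at chr10:19011914-19012213, hold no match of either motif. Irf1 has 1 NF-kB match in the first of its 2 windows and none in the second. A match is only a run of letters, and its absence says only that those letters are not in this window.

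Besides Sele, whose gene spans chr1:164048234-164057677 on the plus strand (mm10), the genes that name these cells are Icam1 (chr9:21015985-21028817, plus strand), Atf3 (a stress-induced transcription factor), Tnfaip3 (the ubiquitin-editing brake A20) and Irf1 (a transcription factor induced by interferon and NF-kB). They were picked from these cells, so their values are a description with no test. Sele itself stood at 523 and 512 CPM in Sele-positive cells of libraries 1 and 2, at 0 by rule in Sele-zero cells, and at 719 and 1475 CPM in venous cells. These CPM values, and those of single genes below unless called plain, were scaled by the trimmed mean of M-values (TMM).

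Icam1 had 757 and 1897 CPM in Sele-positive cells, against 210 and 672 CPM in Sele-zero cells, with 1075 and 2594 CPM in venous cells. Irf1 had 307 and 530 CPM, against 108 and 246 CPM in Sele-zero cells and 492 and 858 CPM in venous cells. Atf3 had 351 and 845 CPM, against 140 and 447 CPM in Sele-zero cells and 634 and 1394 CPM in venous cells. Within either library each of these genes was at an intermediate level in Sele-positive cells, and each was higher in library 2 in all 3 kinds of cells. Tnfaip3 was the scarcest, at 47.6 and 150 CPM in Sele-positive cells, 22.7 and 66.0 CPM in Sele-zero cells and 66.3 and 173 CPM in venous cells. Over both libraries, Sele-positive minus Sele-zero differences on the log2 scale were 1.66 for Icam1, 1.29 for Irf1, 1.17 for Tnfaip3 and 1.10 for Atf3. Against venous cells they were −0.48, −0.70, −0.28 and −0.79.

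**Figure D2:**
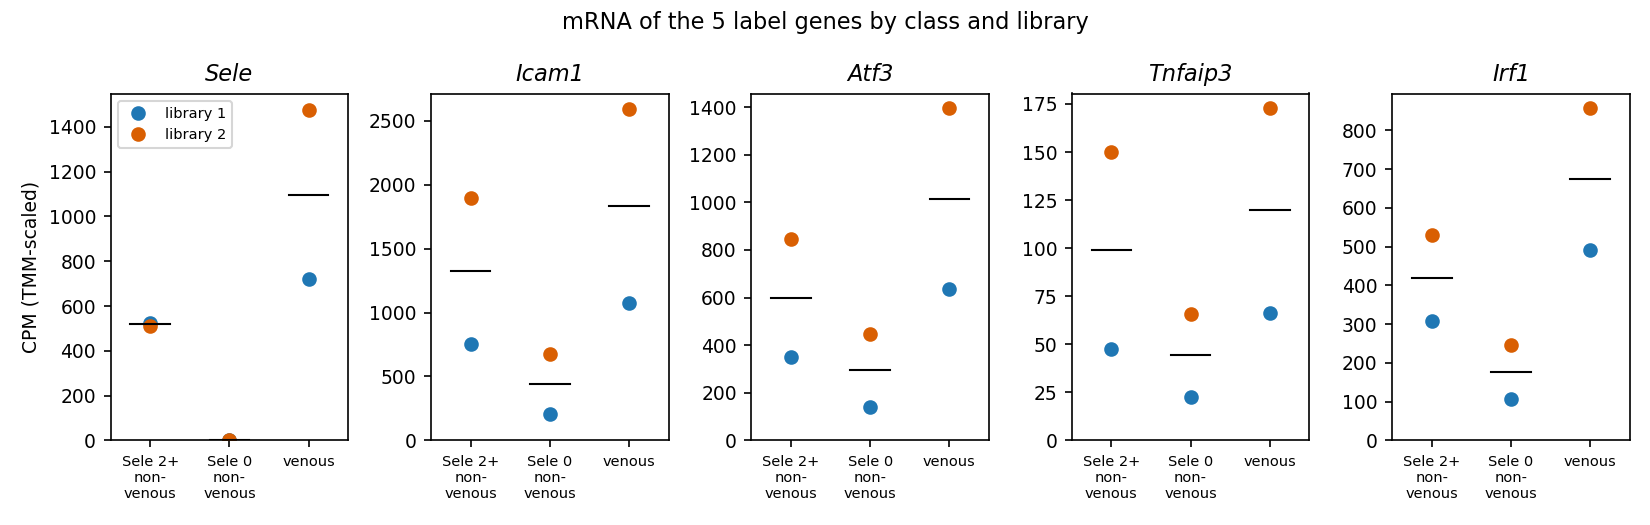
TMM-scaled CPM (vertical axis) of Sele, Icam1, Atf3, Tnfaip3 and Irf1 in Sele-positive, Sele-zero and venous cells, with a point for each library and a bar at the mean. Within each library Icam1, Atf3, Tnfaip3 and Irf1 are higher in Sele-positive than in Sele-zero cells and lower than in venous cells, and each is higher in library 2.

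Values just inside and just outside the bars of the rule are given with no test. The 18 and 41 cells with exactly 2 Sele UMIs had 417 and 1174 plain CPM of Icam1 in libraries 1 and 2, against 671 and 1288 CPM in the 29 and 67 cells with exactly 1. Their mean ICAM1 antibody tag counts were 244 and 230 per cell against 211 and 182. At the other bar, Sele-positive cells with 2 UMIs of Ackr1 and Selp (16 in library 1, 19 in library 2) averaged 191 and 316 ICAM1 tag counts, while cells with 3 such UMIs, the first on the venous side, averaged 371 and 370 over 6 and 12 cells. No UMI of Ackr1 or Selp was found in 34 of 66 and 114 of 160 members. Among Sele-zero cells 736 of 769 and 909 of 938 had none, so members more often held a few such UMIs.

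Which other genes went with Sele outside the venous gate was asked by comparing Sele-positive with Sele-zero cells. Sele-positive cells had more mRNA of early stress and inflammatory genes (Cebpd, Gem, Myc, Nfkbia, Cxcl10), and more of several but not all genes known from veins, with Nr2f2, Lrg1, Procr and Aqp1 higher. They had several-fold less mRNA of arterial genes (Gja4, Cxcl12, Sema3g, Hey1) and of the imprinted noncoding RNA H19. Of 10112 genes tested with edgeR's quasi-likelihood test and the library as a block, 443 (4.38%) passed a Benjamini-Hochberg adjusted p of 0.05, with 189 (1.87%) higher and 254 (2.51%) lower in Sele-positive cells. The genes of the rule and the label genes were left out of this test. Without the library block 65 genes passed, so most calls rest on differences taken within libraries.

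Among the rises, Nr2f2, which encodes the transcription factor COUP-TFII that upholds venous identity, had 184 and 122 CPM in Sele-positive cells of libraries 1 and 2, against 70.4 and 60.7 CPM in Sele-zero cells. The log2 difference was 1.18 ± 0.12 (SE, adjusted p = 7.06e-05). Its level was 269 and 205 CPM in venous cells, so the Sele-positive cells were intermediate in either library. The gene lies at chr7:70351944-70366735 on the minus strand (mm10). Restricting Sele-positive and Sele-zero cells to those with no Ackr1 or Selp UMI left a difference of 0.93. Lbp, the lipopolysaccharide-binding protein gene at chr2:158306493-158332852 (mm10, plus strand), had 117 and 42.5 CPM in Sele-positive cells, against 36.4 and 11.4 CPM in Sele-zero cells (log2 1.75 ± 0.18, adjusted p = 5.86e-05). Lbp was about as far below venous cells, at 317 and 156 CPM, and its rise without Ackr1 and Selp UMIs was 1.10.

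Other rises of that size belonged to genes of varied roles. Neurl3, a ubiquitin ligase gene, had 89.7 and 79.7 CPM in Sele-positive cells, against 30.1 and 30.0 CPM in Sele-zero cells (log2 1.46 ± 0.19). Slco2a1, which encodes the prostaglandin transporter, had 95.2 and 166 CPM against 47.8 and 51.4 CPM (1.45 ± 0.17). Ptgs1, cyclooxygenase 1, had 72.0 and 38.8 CPM against 24.3 and 15.4 CPM (1.44 ± 0.24). All 3 were higher in either library taken alone, as were the adhesion protein gene Flrt2 (log2 1.70 ± 0.21), Lrg1 (1.33 ± 0.23) and Slfn2 (1.16 ± 0.15). The protein C receptor gene Procr rose by 0.83 ± 0.13, the water channel gene Aqp1 by 0.82 ± 0.09 and Plvap, whose protein forms the diaphragms of fenestrae and caveolae, by 0.65 ± 0.09 on the log2 scale. The vein markers Ephb4 and Vwf did not pass, with plain CPM of 67.3 and 68.4 for Ephb4 in Sele-positive cells, against 73.3 and 72.3 in Sele-zero cells, and of 327 and 83.1 against 150 and 85.7 for Vwf. The rise of Lrg1 no longer passed with cells that had no Ackr1 or Selp UMI (1.10, adjusted p = 0.0597) or without arterial-gate cells (0.86, adjusted p = 0.0874).

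The transcripts of NF-kB inhibitors moved with Sele. Nfkbia had 1391 and 2169 CPM in Sele-positive cells, against 757 and 1301 CPM in Sele-zero cells and 1846 and 3179 CPM in venous cells. Its rise over Sele-zero cells was 0.80 ± 0.08 on the log2 scale (adjusted p = 3.01e-05). Of the 21 tested genes on the list of NF-kB subunits, inhibitors and feedback genes, 5 rose and none fell, beside 1.87% and 2.51% of all genes, and the list's median log2 difference was 0.36 against 0.01 over all genes tested. Those that rose were Nfkbia, its nuclear relatives Nfkbid (1.31 ± 0.31, adjusted p = 0.0291) and Nfkbiz (0.88 ± 0.11), the subunit Rel (0.94 ± 0.15) and the mRNA-degrading nuclease Zc3h12a (0.76 ± 0.19). The other subunits did not pass, with Nfkb1 at 0.26 ± 0.13 and Relb at 0.30 ± 0.14. With cells that had no Ackr1 or Selp UMI, 3 of 21 rose.

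Immediate-early and AP-1 genes, which cells transcribe within minutes of many stimuli, were the longest list. Of 34 tested, 13 were higher and none lower, beside 1.87% and 2.51% of all genes. Their median log2 difference was 0.32. The heat-shock list had a similar share, with 5 of 13 higher and a median of 0.34. Cebpd, a transcription factor of the acute-phase response, had 640 and 760 CPM in Sele-positive cells, against 216 and 383 CPM in Sele-zero cells (1.26 ± 0.12, adjusted p = 3.33e-05). The survival gene Ier3 had 650 and 1193 CPM against 303 and 716 CPM (0.91 ± 0.10), and Egr1, a zinc-finger transcription factor, had 897 and 924 CPM against 505 and 630 CPM (0.69 ± 0.09). Jun and Junb rose by 0.46 and 0.53, whereas Fos, at 0.33 ± 0.10, and Fosb, at 0.08 ± 0.10, did not pass.  In Sele-positive cells 32 of the 34 were higher in library 2 than in library 1, by a median of 0.57 on the log2 scale, and the rises named were present within each library. Myc (1.23 ± 0.21), Csrnp1 (1.22 ± 0.14), Dusp2 (1.07 ± 0.16) and Socs3 (0.65 ± 0.11), the cytokine signalling inhibitor, were also among the 13. Without the library block none of the 34 passed.

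Of 16 tested chemokine, cytokine and leukocyte growth factor genes, 5 rose and 1 fell, with a median log2 difference of 0.05. Cxcl10, which attracts T cells, had 147 and 247 CPM in Sele-positive cells, against 48.0 and 130 CPM in Sele-zero cells (1.20 ± 0.21, adjusted p = 0.00379). Cxcl1, which attracts neutrophils, had 178 and 615 CPM against 97.5 and 341 CPM (0.90 ± 0.20), so the groups overlap unless compared within a library. Csf3, the neutrophil growth factor, was found as 2 and 44 UMIs in Sele-positive cells and as 0 and 27 UMIs in the far larger pools of Sele-zero cells, and its adjusted p was 0.000532. Csf1, the macrophage growth factor, rose by 0.84 ± 0.18. Cxcl16 had 48.9 and 12.9 CPM against 16.7 and 6.95 CPM, but with cells that had no Ackr1 or Selp UMI its difference fell to 0.03 on the log2 scale, and that of Cxcl10 to 0.48. Ccl2, a monocyte attractant, had 5.44 and 257 CPM in Sele-positive cells and 48.1 and 87.7 CPM in Sele-zero cells, so the libraries went opposite ways and it did not pass.

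Of 16 leukocyte adhesion genes tested, which left out the selectins and Icam1, none was higher and 3 were lower with all cells, namely Icam2 (−0.47 ± 0.11), the sialomucin gene Podxl (−0.86 ± 0.13) and Cd200 (−1.19 ± 0.15), a ligand that restrains myeloid cells. Vcam1, the receptor for the integrin VLA-4, was at 29.9 and 17.2 CPM in Sele-positive cells and 13.5 and 11.8 CPM in Sele-zero cells, a log2 difference of 0.84 ± 0.28 that did not pass (adjusted p = 0.130). Its call depended on the cells taken, since it passed without arterial-gate cells (2.34, adjusted p = 3.67e-05) and after thinning (1.69, adjusted p = 0.000124), whereas it was at −0.02 with cells that had no Ackr1 or Selp UMI. Without arterial-gate cells the falls of Icam2 (−0.15, adjusted p = 0.68) and Podxl (−0.27, adjusted p = 0.499) no longer passed, and that of Cd200 did (−0.88, adjusted p = 0.00245). Of 29 interferon response genes, 3 rose (Ifitm3, Iigp1 and Stat3, by 0.39 to 0.60), none fell and the median was 0.04. For 15 antigen presentation genes the figures were 1 higher (Psmb9, 0.65 ± 0.15) and a median of 0.23. Of 17 survival and cell death genes none passed by edgeR or DESeq2. By edgeR 6 of the 17 had an unadjusted p under 0.05, beside 1570 of all 10112 genes tested. Among 18 cytokine and danger receptors only Il6st, the shared receptor chain of the interleukin 6 family, passed, with 230 and 166 CPM against 101 and 112 CPM.

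Heat-shock genes followed the library as much as the kind of cell. Of 13 tested, 5 were higher in Sele-positive cells, and all 13 were higher in library 2 than in library 1, by a median of 0.77 on the log2 scale. Hspb1, a small chaperone, had 495 and 1395 CPM against 390 and 693 CPM in Sele-zero cells (0.72 ± 0.13). Hspa1b, an inducible chaperone of the HSP70 family whose reads may be shared with its near-identical copy Hspa1a, had 0 and 258 UMIs in Sele-positive cells and 8 and 488 UMIs in Sele-zero cells, so its call rests on library 2.

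**Figure D3:**
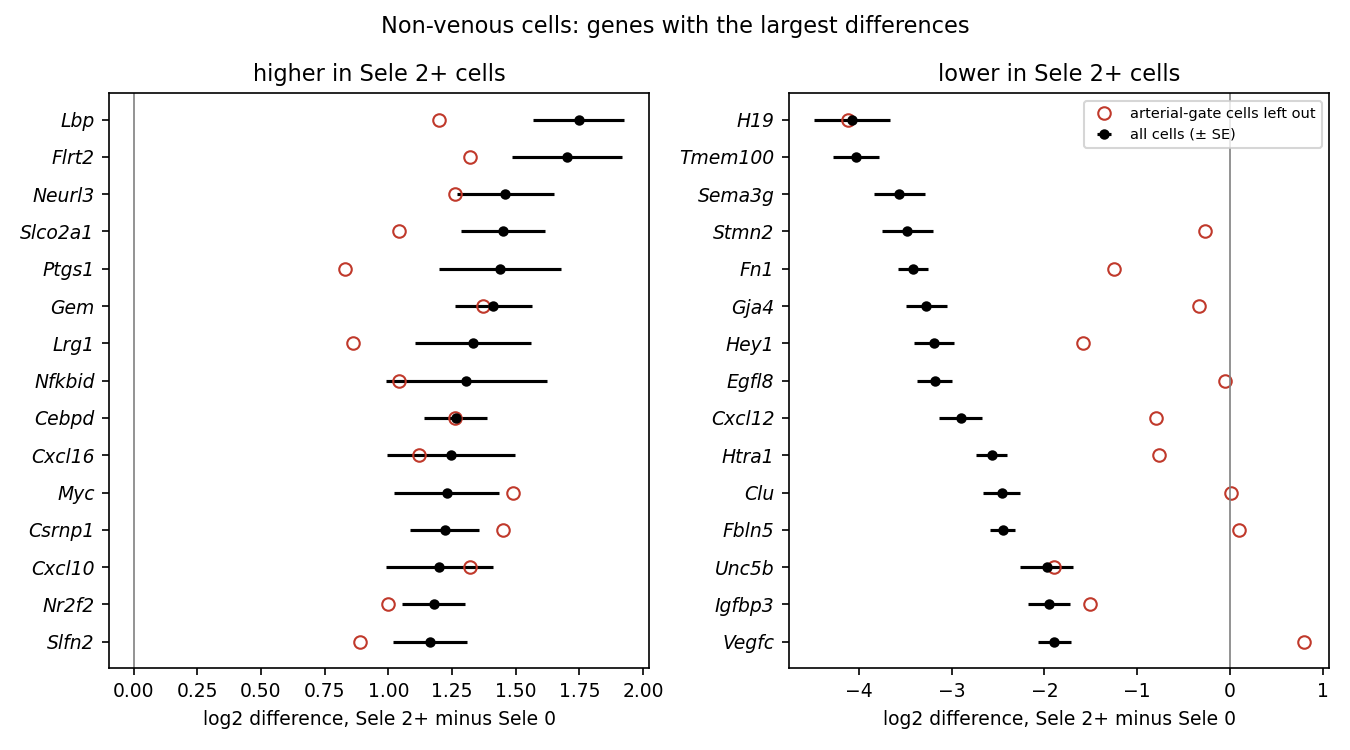
Log2 difference, Sele-positive minus Sele-zero cells, for the 15 largest rises and the 15 largest falls, with standard errors; open circles repeat it with arterial-gate cells left out (Tmem100 and Sema3g were then too low to be tested). With those cells left out Gja4 is at −0.34 where it was at −3.27 and Clu at 0.01 where it was at −2.46, whereas H19 is at −4.12 and Nr2f2 at 1.0.

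The falls were steeper than the rises. Gja4, the arterial gap-junction protein connexin 37, had 20.4 and 26.4 CPM in Sele-positive cells, against 310 and 208 CPM in Sele-zero cells (log2 −3.27 ± 0.22, adjusted p = 8.84e-07). Cxcl12, a chemokine made by arterial endothelium, had 84.3 and 66.7 CPM against 661 and 490 CPM (−2.90 ± 0.23). The Notch target Hey1 had 6.80 and 8.07 CPM against 79.4 and 66.7 CPM (−3.19 ± 0.21), and Gja5, connexin 40, was found as 0 and 2 UMIs against 218 and 177. Each of these genes was lower in Sele-positive than in Sele-zero cells in either library. Tmem100, Sema3g, Stmn2, Fn1, Egfl8, Htra1, Clu, Fbln5 and Vegfc fell by between 1.89 and 4.03 on the log2 scale.

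Many of these falls went with the arterial cells among the Sele-zero cells. Cells with 3 or more UMIs of Gja4, Gja5, Cxcl12, Unc5b and Sema3g were left out of both kinds, which kept 57 and 133 Sele-positive and 367 and 467 Sele-zero cells. No venous cell was left out. The count of called genes was then 329 of 9774, with 186 higher and 143 lower. The differences of Stmn2, Egfl8 and Gja4 became −0.27, −0.06 and −0.34, those of Clu and Fbln5 became 0.01 and 0.10, and that of Vegfc became 0.80, although the value of Gja4 is bound to shrink because the gene is part of that gate. Fn1, the fibronectin gene, and Hey1 kept differences of −1.25 and −1.59. H19, an intergenic noncoding RNA gene at chr7:142575529-142578143 (mm10, minus strand) with 4.08 and 4.84 CPM (3 and 9 UMIs) in Sele-positive cells against 99.0 and 67.6 CPM in Sele-zero cells, was at −4.07 ± 0.41 with all cells and at −4.12 without arterial-gate cells. Igfbp3, an insulin-like growth factor binding protein gene, had 160 and 227 CPM against 769 and 746 CPM, −1.95 ± 0.22 with all cells and −1.51 without arterial-gate cells. The rises of Nr2f2, Cebpd and Nfkbia were 1.0, 1.26 and 1.0 there, and 23 of 34 immediate-early genes were higher.

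Other calls against Sele-zero cells were lost under single settings. With cells that had no Ackr1 or Selp UMI, Myc (1.01, adjusted p = 0.0612), Nfkbid (1.36, adjusted p = 0.0752), Ptgs1, Icam2, Il6st, Ifitm3, Iigp1, Stat3, Psmb9 and Nrp1 no longer passed, besides the chemokines named above. After thinning Nfkbid (1.02, adjusted p = 0.0591), Stat3, Psmb9, Hspa1b and Nrp1 did not pass. DESeq2 did not call Nfkbid, Cxcl10, Csf3, Unc5b, Slc14a1, Iigp1, Stat3, Psmb9 or Hspa1b. The stricter cell filter lost Ptgs1, Lrg1, Nfkbid, Rel, Cxcl10, Cxcl16, Podxl, Icam2, Socs3 and Hspb1 among others. Without arterial-gate cells Iigp1, Psmb9, Hspa1b, Hspb1, Cxcl12 and Htra1 did not pass. Cxcl12 is part of that gate, so its difference was bound to shrink.

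Junction genes split. Cldn5, the main claudin of endothelial tight junctions, had 541 and 814 CPM in Sele-positive cells, against 1386 and 1396 CPM in Sele-zero cells (−1.05 ± 0.11). Of 18 tested junction and barrier genes 5 fell (Cldn5, Jup, Ptprb, Gja4 and Gja5) and 1, Plvap, rose. Of 17 genes of VEGF and angiopoietin signalling, 4 fell (Nrp1, Vegfc, Ptprb and Unc5b) and Nrp2, the neuropilin of veins and lymphatics, rose by 0.47 ± 0.12. Kdr, which encodes VEGFR2, had 374 and 583 CPM against 461 and 559 CPM and did not pass (−0.09 ± 0.11). In the list of flow-response genes, Slco2a1 and Tgm2 rose, Heg1 fell (though it was at −0.02 with an adjusted p of 0.993 without arterial-gate cells), and the flow-induced factors Klf2 and Klf4 were at −0.08 ± 0.10 and 0.03 ± 0.09.

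What set these cells apart from venous cells was asked of the same fit. Relative to venous cells, Sele-positive cells had more mRNA of the tip-list genes Esm1, Kcne3 and Nid2, of Unc5b and of Btnl9, and less of interleukin 6, of matrix genes (Mmp2, Fbn1, Eln) and of some stress and feedback genes (Junb, Egr1, Ier3, Nfkbia). Of other genes that were above Sele-zero cells, Myc (0.00), Nfkbid (−0.04), Cebpd (−0.39 ± 0.12) and Gem (−0.46 ± 0.15) did not pass against venous cells. The genes named as higher than in venous cells were not highest in Sele-positive cells. Their differences from Sele-zero cells were −1.62 for Esm1, −1.09 for Kcne3, −0.72 for Btnl9 and −0.37 for Nid2. Unc5b was also lower than in Sele-zero cells, and each of these genes was lower in either library. Of 10112 genes, 423 (4.18%) passed, with 148 (1.46%) higher and 275 (2.72%) lower in Sele-positive cells. Because the Sele-positive cells enter both comparisons, the 2 sets of differences share their values and are given side by side only. Without the library block 10 genes passed.

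Btnl9, a butyrophilin-like gene of capillary endothelium, had 63.9 and 113 CPM in Sele-positive cells, against 9.91 and 14.6 CPM in venous cells (log2 2.88 ± 0.22, adjusted p = 1.26e-05). Esm1, endocan, a tip-cell protein, had 9.52 and 63.0 CPM against 1.86 and 4.48 CPM (3.67 ± 0.57), but its 106 and 140 CPM in Sele-zero cells were higher still. Slc14a1, the urea transporter gene, had 44.9 and 147 CPM against 13.0 and 21.8 CPM in venous cells (2.49 ± 0.22) and 37.6 and 69.2 CPM in Sele-zero cells. Its difference from Sele-zero cells was 0.86 ± 0.16 (adjusted p = 0.00625) over both libraries but 0.25 in library 1 alone. It no longer passed after thinning (0.59, adjusted p = 0.0699) or without arterial-gate cells (0.06, adjusted p = 0.943). Nid2, a basement membrane gene, had 139 and 261 CPM against 54.5 and 84.5 CPM in venous cells (1.54 ± 0.16), and the phosphatase gene Ptp4a3 had 205 and 236 CPM against 79.9 and 89.0 CPM (1.39 ± 0.12). Ptp4a3 was lower than in Sele-zero cells, at −0.88.

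Several genes higher than in venous cells, among them Esm1 and Kcne3 of the tip list, were carried mainly by library 2. Unc5b had 5 and 68 UMIs in Sele-positive cells of libraries 1 and 2, Kcne3 3 and 51, Sema7a 6 and 127 and Esm1 7 and 117, against 2 and 5, 3 and 8, 8 and 20, and 3 and 8 UMIs in venous cells. The pools of library 2 were 1900781 UMIs for Sele-positive and 1899596 for venous cells, and those of library 1 were 712829 and 1598076. All 4 were higher in Sele-positive than in venous cells in either library, and lower than in Sele-zero cells. After thinning, Esm1 (1.97, adjusted p = 0.255) and Unc5b (1.33, adjusted p = 0.601) no longer passed, while Btnl9 (2.16, adjusted p = 0.000271) and Nid2 (1.33, adjusted p = 8.88e-05) did. Without arterial-gate cells Kcne3 (1.81, adjusted p = 0.0552) and Unc5b (1.93, adjusted p = 0.0762) missed the threshold. Venous cells were not gated there, and Unc5b is part of the gate, so its difference was bound to shrink. Dll4, the Notch ligand of tip cells, rose by 1.21 ± 0.27, Kdr by 0.45 ± 0.12, Flt4 by 1.40 ± 0.33 and Cldn5 by 0.50 ± 0.12 over venous cells on the log2 scale, and the Kdr value was 0.16 in library 1 and 0.69 in library 2.

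On the lower side, Il6, the gene of interleukin 6, had 24.5 and 53.3 CPM in Sele-positive cells, against 85.5 and 209 CPM in venous cells (−1.91 ± 0.15, adjusted p = 1.68e-05). In Sele-zero cells it had 23.03 and 50.2 CPM, and the difference of Sele-positive from Sele-zero cells, 0.08 ± 0.16, did not pass with all cells but was 1.45 (adjusted p = 0.000978) without arterial-gate cells. Csf3 was found as 2 and 44 UMIs in Sele-positive cells and as 18 and 288 in venous cells (−2.74 ± 0.25). Vcam1 had 29.9 and 17.2 CPM against 105 and 57.1 CPM (−1.80 ± 0.24), and the von Willebrand factor gene Vwf had 317 and 85.0 CPM against 753 and 400 CPM (−1.70 ± 0.19). The matrix protease gene Mmp2 had 28.5 and 5.92 CPM against 128 and 59.3 CPM (−2.65 ± 0.24), and Fbn1, fibrillin 1, had 205 and 102 CPM against 494 and 440 CPM (−1.71 ± 0.16). Lrg1 had 29.9 and 45.2 CPM against 196 and 178 CPM, its difference of −2.21 ± 0.19 standing beside a rise of 1.33 over Sele-zero cells. Il6, Vcam1 and Lrg1 thus had lower levels in Sele-positive than in venous cells in either library.

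The feedback and stress lists differed against venous cells, and on each of them most genes did not pass. Of 34 immediate-early genes 13 were lower, among them Fos, Junb, Egr1, Ier3 and Socs3, and Rhob alone was higher, with a median of −0.39. When the bar for Sele-positive cells was raised to 4 UMIs, 3 were higher and 2 lower. Of 21 NF-kB genes 4 were lower (Nfkbia, Nfkbiz, Bcl3 and Zc3h12a) and none higher, with Nfkbia at −0.48 ± 0.08. Of 20 genes of SOCS proteins and other signal brakes 2 were higher (Spry1 and N4bp3) and 2 lower (Socs2 and Socs3), and of 13 heat-shock genes 2 were higher (Hspa1a and Hspa1b) and none lower. Of 16 chemokine and cytokine genes 4 were lower (Il6, Csf3, Cxcl10 and Cxcl16), and of 17 coagulation and vasomotor genes 6 were lower (Vwf, Procr, Ptgs1, Plat, Entpd1 and Edn1) and none higher. The flow-induced factors Klf2 and Klf4 were lower, at −0.51 ± 0.10 and −0.52 ± 0.10. None of 15 antigen presentation and none of 17 survival genes passed by edgeR or DESeq2. By edgeR 1 and 4 of them had an unadjusted p under 0.05, beside 1441 of all 10112 genes tested. Some calls against venous cells were also lost under single settings. DESeq2 did not call Kdr, Cldn5, Cxcl10, Csf3, Unc5b, Kcne3, Sema7a, Eln, Edn1 or Socs3. The stricter cell filter lost Nfkbia, Nfkbiz, Egr1, Ier3, Kcne3, Kdr and Cldn5 among others, and a bar of 4 Sele UMIs lost Esm1, Nfkbia and Egr1. Cxcl10 was at −0.29 after thinning (adjusted p = 0.599).

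Within the gate, selected transcripts were followed over bins of 0, 1, 2 to 3, 4 to 7 and 8 or more Sele UMIs, in plain CPM. Icam1 stood at 218, 671, 486, 1009 and 1208 CPM in library 1 and at 665, 1288, 1261, 1978 and 2588 CPM in library 2, and Irf1 at 112, 151, 186, 480 and 477 CPM and at 244, 285, 331, 590 and 711 CPM. Nfkbia stood at 786, 1021, 1024, 2008 and 1907 CPM in library 1 and at 1288, 1481, 1835, 1906 and 2796 CPM in library 2. These 3 transcripts were thus highest in the upper bins of either library. Gja4 was at 322, 75.5, 30.6, 28.8 and 0 CPM in library 1 and at 205, 33.5, 40.2, 18.0 and 13.5 CPM in library 2, so most of its drop lay between 0 and 1 Sele UMI. Nr2f2 had no steady order, with 73.0, 84.6, 206, 96.1 and 204 CPM and with 60.1, 69.8, 101, 164 and 92.4 CPM. The bins of library 1 held 769, 29, 35, 11 and 20 cells, so 1 UMI of Gja4 or Nr2f2 weighs heavily in the upper bins.

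Among Sele-positive cells themselves, the share of UMIs from Sele went with that from Icam1, with Spearman coefficients of 0.49 over 66 cells of library 1 and 0.33 over 160 cells of library 2. The coefficients were 0.34 and 0.24 for Irf1, 0.35 and 0.25 for Nfkbia, and −0.06 and 0.06 for Nr2f2. They are descriptions of cells that share a library and a depth range and carry no p.

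**Figure D4:**
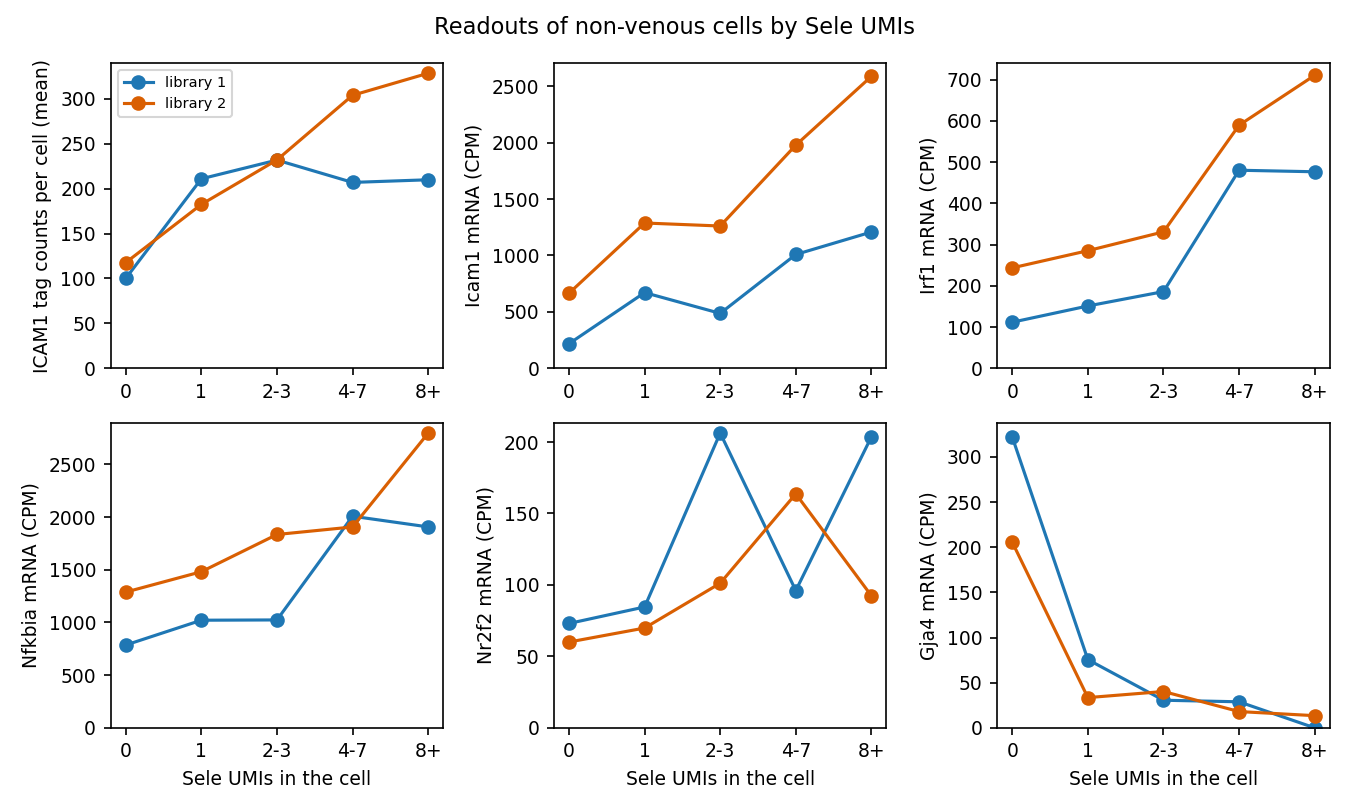
Mean ICAM1 tag counts per cell and plain CPM of Icam1, Irf1, Nfkbia, Nr2f2 and Gja4 (vertical axes) by Sele UMIs per cell (horizontal axis, 0 to 8 or more), a line for each library. In library 2 the ICAM1 tag goes from 118 at 0 to 328 at 8 or more Sele UMIs, whereas in library 1 it is 211 at 1 UMI and 210 at 8 or more.

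The antibody tags gave a protein readout that the rule did not use. The oligonucleotide that reported surface ICAM1, printed because the strongest protein result rests on it, and that for CXCR4, the receptor of CXCL12, were these.
ICAM1 tag: ataaccgacacagtg
CXCR4 tag: gtcgtggtgttgttc
Surface ICAM1 was higher on Sele-positive than on Sele-zero cells and lower than on venous cells, in both libraries. Sele-positive cells averaged 221 and 279 ICAM1 tag counts per cell in libraries 1 and 2, against 100 and 118 on Sele-zero cells and 372 and 409 on venous cells. The medians were 172 and 245 on Sele-positive cells, 68 and 89 on Sele-zero cells and 294.5 and 332 on venous cells. In library 1 the quartiles of Sele-positive cells were 122 and 265.5 and those of Sele-zero cells 34 and 126.5, so the interquartile ranges overlapped only narrowly. The mean was 2.21 and 2.37 times that of Sele-zero cells, a log2 ratio of 1.19 ± 0.07 (SD, n = 2), and −0.65 ± 0.14 against venous cells. With 2 libraries an exact permutation test cannot go below p = 0.333, which is the value here. Rat IgG2a isotype tags averaged 0.894 and 2.31 counts on Sele-positive cells against 1.23 and 2.00 on Sele-zero cells, far below the ICAM1 counts. Rat IgG2b isotype tags were 0.791 and 0.947 times those of Sele-zero cells and 0.599 and 0.844 times those of venous cells. Divided by the isotype tags, the ICAM1 log2 ratio was 1.33 over Sele-zero cells and −0.33 against venous cells.

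The ICAM1 tag and Icam1 mRNA did not follow Sele in the same way. Over the Sele bins the tag averaged 100, 211, 232, 207 and 210 counts in library 1, reaching its level with the first Sele UMI, and 118, 182, 232, 304 and 328 in library 2, where each bin was higher than the one before. Within Sele-positive cells its Spearman coefficient with the Sele share was −0.26 and −0.05. Leaving out arterial-gate cells lowered the log2 ratio over Sele-zero cells to 0.89.

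CXCR4 tags were low on Sele-positive cells. They averaged 2.88 and 11.1 counts per cell, against 32.6 and 31.6 on Sele-zero cells and 3.68 and 2.91 on venous cells, with medians of 2 and 3 against 10 and 11 on Sele-zero cells. Cxcr4 mRNA was found as 0 and 27 UMIs in Sele-positive cells, as 186 and 200 in Sele-zero cells and as 2 and 0 in venous cells, and neither mRNA comparison passed with all cells. Against Sele-zero cells the mRNA did pass after thinning (−2.81, adjusted p = 0.00452) and without arterial-gate cells (−1.87, adjusted p = 0.0468). Against venous cells it was at −1.43 in library 1 alone. The direction of the tag against venous cells differed between libraries, being lower in library 1 and higher in library 2. VCAM1 tags (1.94 and 2.66 against 2.21 and 2.35 on Sele-zero cells), VEGFR2 tags (2.86 and 5.12 against 3.15 and 3.65) and the median CD45 tag count of 1 in each of these pools lay within a few counts of the isotype tags, and no difference was detectable for them. The mean of 13.8 CD45 tags on Sele-positive cells of library 2 beside a median of 1 came from few cells.

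**Figure D5:**
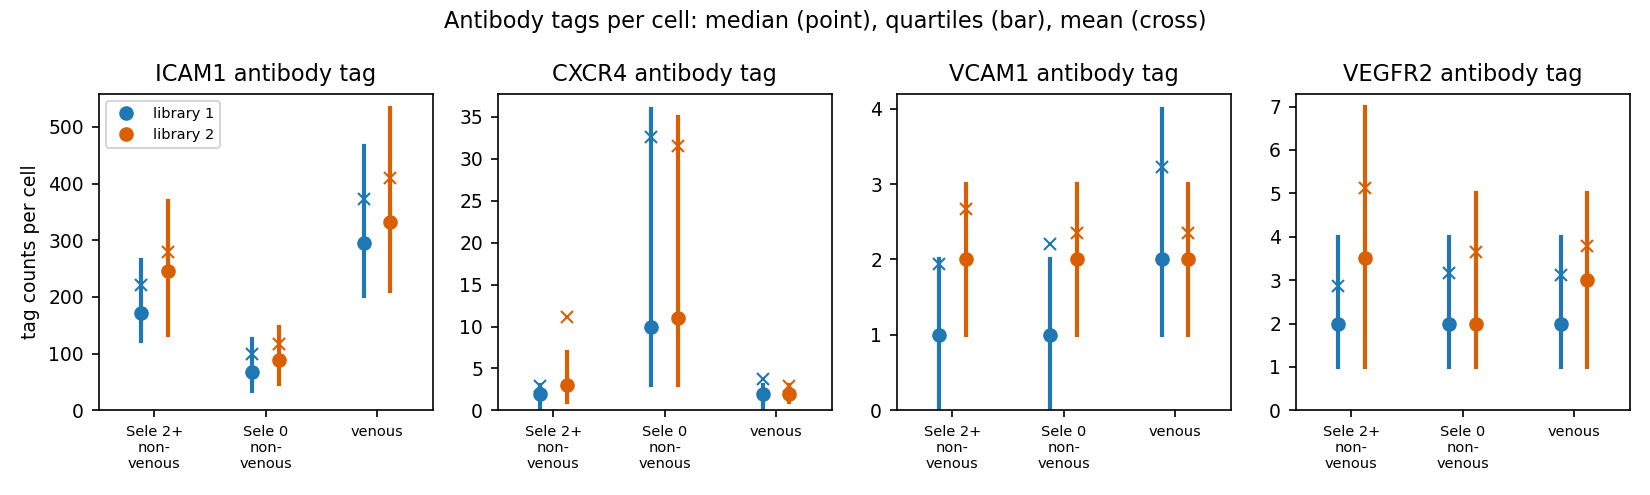
Antibody tag counts per cell (vertical axes) for ICAM1, CXCR4, VCAM1 and VEGFR2 in Sele-positive, Sele-zero and venous cells of each library, with points at medians, bars over the quartiles and crosses at means. Median ICAM1 counts are 172 and 245 on Sele-positive cells, between 68 and 89 on Sele-zero and 294.5 and 332 on venous cells, and median CXCR4 counts are 2 and 3 against 10 and 11 on Sele-zero cells.

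Whether genes went with Sele differently outside and inside the venous gate was tested as an interaction, Sele-positive minus Sele-zero cells against venous cells with 2 or more minus venous cells with no Sele UMI. Of 9705 genes 45 (0.464%) passed, 20 with a positive and 25 with a negative difference, and without the library block none passed. The 563 genes with an unadjusted p under 0.05 in that fit were only a little above the share this cut-off gives when nothing differs. The venous cells without Sele numbered only 36 in library 1 and 10 in library 2, so values in that pool rest on few UMIs. Lbp was higher with Sele in non-venous cells (119 and 43.1 CPM against 36.8 and 11.6 CPM) and lower with it in venous cells (287 and 161 CPM with Sele, 437 and 187 CPM without), an interaction of 2.15 ± 0.28 on the log2 scale (adjusted p = 0.000528). Ptgs1 (1.80 ± 0.27) and Slfn2 (1.78 ± 0.25) had the same pattern. Cxcl12 was much lower with Sele in non-venous cells and scarce on both sides of the venous comparison, with 62 and 124 UMIs in Sele-positive cells, 4506 and 3948 in Sele-zero cells, 44 and 69 in venous cells with Sele and 14 and 1 in those without.

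The NF-kB consensus was found in the promoter windows of 15 of the 137 higher genes that matched RefSeq (10.9%), of 6.42% of the 187 lower genes, and of 6.39% of the 7950 tested genes that matched. The AP-1 motif was in 7.30% of the higher genes, 6.95% of the lower genes and 5.70% of tested genes. Over all 27025 genes in the promoter table the shares were 5.14% and 8.97%. These are counts of letters, given without a test.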

How the data were processed

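Single-cell mRNA and antibody-tag libraries of neonatal ear endothelium (2 each, same replicate numbers) were used. The mRNA matrices hold UMI counts per gene and barcode as deposited by the authors, and the tag matrices hold tag counts per antibody and barcode as deposited by the authors, with nothing given on whether these are UMIs or reads. Cell Ranger, Seurat 3.0.2 and the mm10 build are named in the submitters' processing notes, and a software version of 3.0.2 per the file headers; the sources used here give neither alignment settings nor the tag counter. No cell annotation was used.

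From these counts, cells with at least 500 genes and at most 10% mitochondrial UMIs were kept and placed in classes by raw UMIs of the 9 genes of the rule. The members and the gene and marker lists were chosen with earlier results of these data known. Doublets were not called (cells above 3 times the median UMIs were left out as an alternative) and free RNA was not corrected. UMIs were summed per class and library and tested with edgeR 4.0.16 (TMM, filterByExpr, quasi-likelihood test, library as block, Benjamini-Hochberg over all tested genes, threshold 0.05) in R 4.3.3 with limma 3.58.1. The block was part of the design because every class comes from the same 2 libraries. Rule and label genes entered library sizes but no test. Alternatives were RLE scaling, DESeq2 1.42.0, no count filter, no block, other bars for Sele (1 or 4) and for Ackr1 and Selp (0), a stricter cell filter (1000 genes, 5% mitochondrial), thinning to 5000 UMIs, and leaving out arterial, other-type, high-UMI or haemoglobin-rich cells or each library. Tag counts were summarised per cell, matched by barcode to the mRNA library of the same number. Python 3.11.15, numpy 2.4.6, pandas 2.3.3 and scipy 1.17.1 were used.

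Genes named with values were the label genes, those of the tagged proteins, the 15 largest rises and falls per comparison among called genes whose mean log2 CPM was 5 or more and whose direction was shared by both libraries, the 10 smallest adjusted p of the interaction, and up to 4 genes per list with the smallest adjusted p against Sele-zero cells. Other list members were named after their values were seen. The fits were checked on simulated counts with known changes. Of 2-fold and 4-fold changes, 78% and 98% were recovered against Sele-zero cells and 71% and 93% against venous cells. The interaction fit recovered only 16% and 62%. False calls were 4.35%, 5.2% and 2.5% of the calls in the 3 comparisons. Pools held from 712829 to 8142692 UMIs in the 3 main classes. Gene IDs matched the mm10 annotation for 30934 of 31054. Intervals cover counting error only.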

Additional observations from a re-analysis of the deposited data

Results flagged for a closer look

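The 10 genes below were singled out because their difference with Sele was not the same in non-venous as in venous cells, by edgeR's test of the interaction with Benjamini-Hochberg adjustment. All rest on a pool of only 36 and 10 venous cells without Sele in libraries 1 and 2, and without the library block none of them passed. Cxcl12 had an adjusted p of 0.000113, with a difference of −3.40 ± 0.38 on the log2 scale and 1 UMI in the venous pool without Sele in library 2. Tmem158 had an adjusted p of 0.000525 (2.60 ± 0.33). Its level was 119 and 28.4 CPM in Sele-positive cells of libraries 1 and 2 against 81.4 and 30.5 CPM in Sele-zero cells, and 143 and 39.4 CPM in venous cells with Sele against 567 and 423 CPM in those without. Lbp had an adjusted p of 0.000528, Slfn2 of 0.00105 and Ptgs1 of 0.00158, each higher with Sele outside the venous gate and lower with it inside. Tm4sf1, a surface protein gene of growing endothelium, had an adjusted p of 0.000688, with 849 and 1090 CPM in Sele-positive cells against 1927 and 1756 CPM in Sele-zero cells, and 1028 and 1610 CPM in venous cells with Sele against 632 and 996 CPM in those without. Clu (0.00134), Stmn2 (0.00158) and Rasl11a (0.00236) had differences of −3.68 ± 0.53, −2.28 ± 0.34 and −2.69 ± 0.42. Mt1, a metallothionein gene, had an adjusted p of 0.00382, and no fold is given because the venous pool without Sele had no Mt1 UMI in either library. What lies behind these differences was not tested.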

How the results depend on the processing

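Against Sele-zero cells 443 genes passed, and the count was 199 with DESeq2, 738 with no count filter, 730 with 1 or more Sele UMIs, 248 with no Ackr1 or Selp UMI and 207 with the stricter cell filter; leaving out arterial cells gave 186 higher and 143 lower in place of 189 and 254. Against venous cells 423 passed, and 251, 679, 878 and 167 did with DESeq2, no filter, 1 or more Sele UMIs and the stricter cell filter. For the interaction 45 passed, and 124, 25, 106 and 86 did with no filter, the stricter cell filter (which left no venous cell without Sele in library 2), thinning and high-UMI cells left out. The fits without the replicate block called 65, 10 and 0 genes in the 3 comparisons. There 104 of 214 gene-level results lost their call, and the 214 include results with no call to lose. Leaving out 1 library leaves no residual degrees of freedom, so counts could not be recomputed and single genes got values only.

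The Sele-positive share of non-venous cells, 7.64% and 13.7%, became 11% and 19.5% with 1 or more Sele UMIs, 3.59% and 7.90% with 4 or more, 4.27% and 10.5% with no Ackr1 or Selp UMI, 12.7% and 20.3% without arterial cells, and 16.3% in library 2 with the stricter filter. The ICAM1 tag ratio over Sele-zero cells, 1.19 (log2), was 1.14 to 1.25 by library, 1.11 with 1 or more Sele UMIs, 0.89 without arterial cells, 1.33 relative to isotype tags and 1.40 with medians, a summary chosen after seeing the data, as was leaving out haemoglobin-rich cells. Against venous cells, −0.65 was −0.75 to −0.55 by library, −0.39 after thinning and −0.33 relative to isotype tags. Directions turned in these cases. Without arterial cells, differences from Sele-zero cells became 0.01 for Clu, 0.10 for Fbln5, 0.80 for Vegfc, 0.63 for Eln, 0.04 for Tm4sf1, 0.74 for Edn1 and 0.03 for Ptprb, and those from venous cells −0.34 for Gja4 and −1.47 for Cxcl12. Gja4 and Cxcl12 are part of that gate and venous cells were not gated, so their values in Sele-positive cells were bound to fall. With library 1 alone, Hspa1b was at −1.38 against Sele-zero cells. Against venous cells Hspa1b was at −0.89 and 1.37 with library 1 or 2 alone, and the CXCR4 tag at −0.36 and 1.93. Tnfaip3 was at 0.03 against venous cells with 4 or more Sele UMIs. The cause was not tested. Depth limits the venous pool without Sele and low genes of library 1.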

Other observations

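Sele was not restricted to the gates compared above. Among dividing, non-lymphatic cells, 33 of 142 in library 1 (23.2%) and 85 of 228 in library 2 (37.3%) had 2 or more Sele UMIs, at median depths of 14196.5 and 13761 UMIs. After thinning to 5000 UMIs the shares were 15.8% and 23.9%, above the 5.83% and 9.69% of non-dividing, non-venous cells. The dividing cells were not split by Ackr1 and Selp.

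The tag matrices also list counts that matched no antibody. These averaged 20.3 and 41.1 per Sele-positive cell in libraries 1 and 2, against 11.4 and 19.4 per Sele-zero cell, the same order as the ICAM1 tags.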
